A study of Mus musculus with 8 samples.

Results

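The 10 genes described here encode auxiliary subunits of AMPA receptors and proteins that move these receptors to, or hold them at, the synapse. They were taken by symbol from a table of 56576 genes: the transmembrane AMPA receptor regulatory proteins (TARPs) Cacng2, Cacng3, Cacng4, Cacng7 and Cacng8, the other auxiliary subunits Cnih2, Shisa9 and Prrt1, and the trafficking and turnover proteins Grip1 and Abhd6. All 10 were in the table once, and all 10 had enough reads to be tested. Ribosome-associated RNA was sequenced from synaptosomes (pinched-off synaptic terminals) of mouse cerebral cortex at postnatal day 15. Controls were Lhx6-Cre;Erbb4+/+;Rpl22HA/HA mice and Erbb4 conditional mutants were Lhx6-Cre;Erbb4F/F;Rpl22HA/HA mice, with 4 libraries of each. Both genotypes therefore carried Cre and the ribosome tag, and differed by loxP-flanked Erbb4 alleles. Lhx6-Cre recombines in the progeny of the medial ganglionic eminence (MGE) and preoptic area that become parvalbumin (PV+) and somatostatin (SST+) interneurons, so the hemagglutinin-tagged ribosomes come from both cell types together. The comparison asks how much of these RNAs sat on the tagged ribosomes when the receptor tyrosine kinase ErbB4 was deleted.

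AMPA receptors are glutamate-gated channels that carry most fast excitatory transmission in the cortex. They rarely act alone: TARPs, cornichons and Shisa proteins assemble with the pore subunits, help them leave the endoplasmic reticulum, tether them to scaffolds of the postsynaptic density and tune how long the channel stays open. In PV+ interneurons AMPA receptors are typically fast and rich in the GluA4 subunit, and they drive the quick recruitment of these cells by pyramidal neurons.

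The ends of the TARP and Shisa9 coding sequences are shown because these tails bind PDZ domains of scaffold proteins such as PSD-95, the contact that holds the receptor at the synapse. Each line gives the last 30 coding bases before the stop codon, 5′ to 3′ on the gene's own strand, from the GENCODE M21 transcripts on GRCm38, the same assembly as mm10. Capitals mark the last 12 bases, which encode the residues that meet the PDZ domain.
Cacng2, chr15:77995152-77995181, minus strand: aacacagccaaccgccggACCACGCCCGTA
Cacng3, chr7:122768814-122768843, plus strand: aatccggccaacagacgtACCACGCCTGTC
Cacng4, chr11:107734783-107734812, minus strand: agcatgctgaaccggcggACGACTCCCGTG
Cacng8, chr7:3415573-3415602, plus strand: aacacgctcaacaggaaaACCACGCCCGTG
Cacng7, chr7:3366916-3366945, plus strand: gaccatctccacatctccACTTCGCCGTGC
Shisa9, chr16:12267771-12267800, plus strand: atcactaacagcaaaacaGAAGTGACTGTC

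Each of these stretches lies within a single exon. The type I TARPs shared most of the capital letters with Cacng2, with 11 of 12 identical in Cacng8, 10 in Cacng3 and 9 in Cacng4, whereas Cacng7, a type II TARP that lacks the typical PDZ-binding end, shared 6. Over the bases that could be aligned between coding sequences the identity with Cacng2 was 72.4% for Cacng3, 72.0% for Cacng8, 66.4% for Cacng4 and 62.4% for Cacng7. No stretch of 50 bases in Cacng3, Cacng7, Shisa9, Cnih2, Prrt1 or Grip1 transcripts was shared with another annotated gene. Of the Cacng2 stretches, 5.86% were shared, mostly with the antisense gene A730060N03Rik, and of the Abhd6 stretches 5.74% were, with the pseudogene Gm1833. The shares were 2.27% in Cacng8 and 1.04% in Cacng4. Grip1 and Cnih2 also overlap a protein-coding gene on the opposite strand, Helb and Yif1a. Whether strand was used in counting is not given in the sources used here, so reads of such overlaps cannot be told apart.

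Reads on genes ranged from 51010687 to 80226984 per library, and no member fell below 58 reads in any library. Values are normalized counts, which are reads divided by a size factor for each library. The comparison used limma on log2(normalized count + 1). A gene was called when its unadjusted p was at most 0.05 and its fold change at least 1.5. These thresholds are those of the published methods. Erbb4 itself had 1640, 5377, 4306 and 3034 normalized counts in control replicates 1, 3, 4 and 5, and 1711, 1648, 1233 and 1048 in mutant replicates 2, 3, 4 and 5. The library labelled control replicate 1 was therefore at the level of the mutants. The log2 fold change of Erbb4, mutant over control, was -1.25 (SE 0.34, adjusted p = 0.58 from limma with Benjamini-Hochberg adjustment), and the gene met the call thresholds.

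Ribosome-associated RNA of Cacng2, Prrt1 and Grip1 was lower in Erbb4 conditional mutants at these thresholds, which makes 3 of the 10 members called lower and 0 called higher. Among all 31171 genes tested, 7.15% were called in either direction and 3.17% were called lower. Of the 19137 genes with a mean of at least 100, which include all 10 members, 4.35% were called lower. The median log2 fold change of those genes was -0.006. All 10 members had log2 fold changes below 0, from -0.89 for Cacng2 to -0.23 for Cacng4. Of all 31171 genes tested, 14534 were below 0. The members' median was -0.63, against 0.06 for all genes tested. When each library was set relative to its MGE interneuron markers (below), 6 members were above 0. In that setting the median of all genes was 0.75. The 4 mutant values lay below all 4 control values in 2 members, Prrt1 and Grip1, as they did in 2.17% of genes. No member passed an adjusted p of 0.05 with limma, edgeR or DESeq2, and at an unadjusted p of at most 0.05 with no fold threshold limma found 4 lower, edgeR 5 and DESeq2 6. Among all genes tested, 3.77%, 4.46% and 6.02% were lower by that rule in the same order. With the replicate number as a block, 5 members were called lower, against 5.51% of all genes. That fit rests on the numbers 3, 4 and 5, because control replicate 1 and mutant replicate 2 have no counterpart and add nothing to it. Cacng2 was among the candidates the study chose from these libraries, so its direction is not independent evidence. The 10 members were also chosen with earlier results of these data known, so their shared direction is not independent evidence either. In such bulk RNA, fewer tagged cells or terminals and less RNA in each cannot be told apart.

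**Figure D1:**
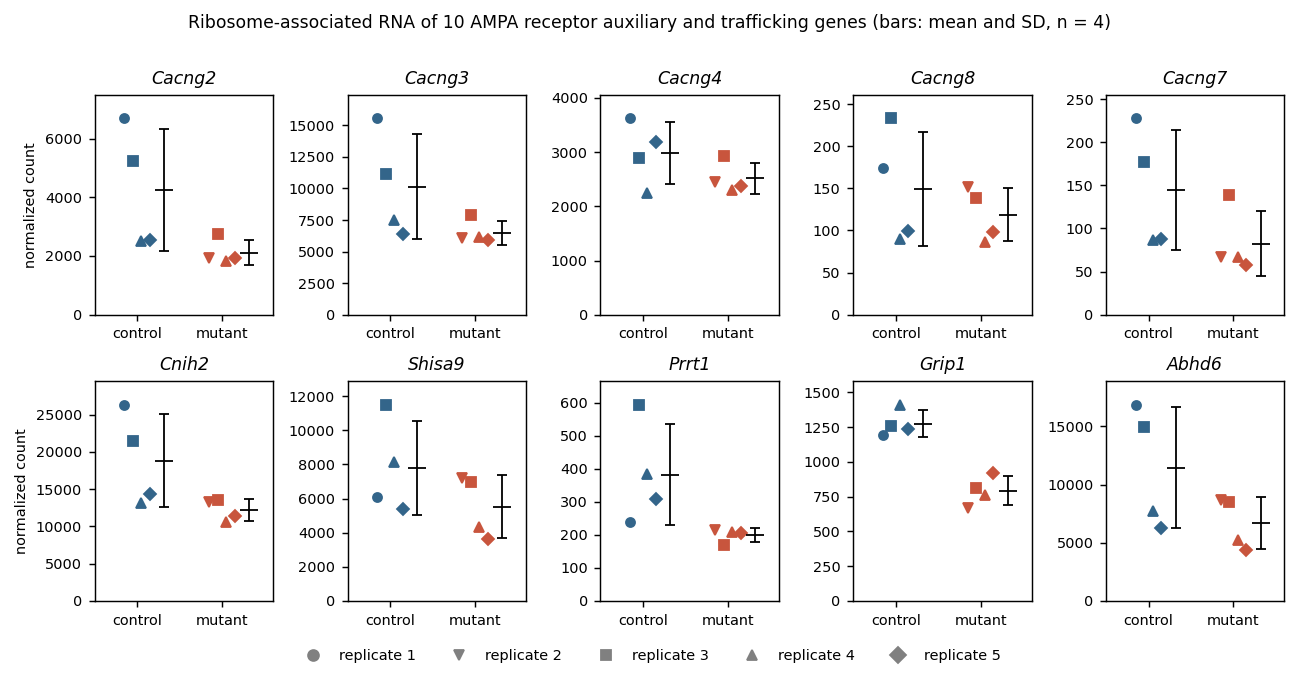
Normalized counts (vertical axis, linear, starting at 0) of the 10 members in each control (blue) and mutant (red) library, with marker shape giving the replicate number and bars the mean and SD (n = 4). Grip1 and Prrt1 are the 2 members whose groups do not overlap. In Cacng2, Cacng3 and Abhd6 the controls split into replicates 1 and 3 above replicates 4 and 5.

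Cacng2 (chr15:77991751-78120028 of mm10) encodes stargazin, the TARP that carries AMPA receptors to the surface and anchors them at PSD-95. It had 6687, 5231, 2517 and 2532 normalized counts in control replicates 1, 3, 4 and 5, and 1943, 2738, 1816 and 1936 in mutant replicates 2, 3, 4 and 5. Control replicates 1 and 3 stood at more than any other library, and the other controls overlapped the mutants, since mutant replicate 3 exceeded both of them. The means were 4242 ± 2070 (SD, n = 4) and 2108 ± 424 (SD, n = 4), a log2 fold change of -0.89 (SE 0.33, 95% interval -1.61 to -0.17). Limma gave p = 0.0195 before adjustment and an adjusted p = 0.58, and the two-sided exact permutation test gave p = 0.0857. With 4 libraries in each group that exact test cannot go below 0.0286. The call was lost without control replicate 1 (log2 fold change -0.63, limma adjusted p = 0.77) and without control replicate 3 (-0.75, adjusted p = 0.73).

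Cacng3 (chr7:122671744-122769391), a close relative of stargazin that is prominent in the cortex, was the most abundant TARP. Its normalized counts were 15551, 11131, 7502 and 6386 in controls and 6041, 7916, 6146 and 5887 in mutants, in the same order of replicates. The upper controls were again replicates 1 and 3, and mutant replicate 3 lay above both other controls. The log2 fold change of -0.57 (SE 0.27) did not pass the test (limma p = 0.0643, exact permutation p = 0.114). It met the call thresholds with edgeR (-0.61, adjusted p = 0.57) and DESeq2 (-0.62, adjusted p = 0.40), and in limma without control replicate 4 (-0.68) or control replicate 5 (-0.76).

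Cacng4 (chr11:107732357-107794706), another type I TARP, which slows receptor deactivation, was the member with the smallest difference. Its controls had 3622, 2887, 2243 and 3182 normalized counts and its mutants 2449, 2934, 2304 and 2381. The lowest of all 8 values was a control, so the groups overlapped. The log2 fold change was -0.23 with a 95% interval of -0.67 to 0.21 (limma p = 0.27, exact permutation p = 0.29), which leaves room for a decrease of more than the fold threshold as well as for a small increase.

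Cacng8 and Cacng7 are neighbours on chromosome 7, on the same strand and 22461 bases apart, and both were the scarcest members. Cacng8 (chr7:3394042-3416266), the TARP best known from hippocampal pyramidal cells, had 175, 233, 90.1 and 98.9 normalized counts in controls and 151, 138, 86.1 and 98.2 in mutants. Cacng7 (chr7:3332825-3368221), which favours calcium-permeable receptors, had 228, 177, 86.1 and 87.8 in controls and 66.7, 138, 66.6 and 57.6 in mutants. In both genes control replicates 1 and 3 were the highest libraries. Neither passed the test, with log2 fold changes of -0.26 (95% interval -1.27 to 0.76) for Cacng8 and -0.77 (-1.92 to 0.38) for Cacng7, intervals wide enough to hold both a halving and no change.

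Cnih2 (chr19:5092870-5098521), a cornichon that helps AMPA receptors leave the endoplasmic reticulum and slows their closing, had 26338, 21433, 13096 and 14334 normalized counts in controls and 13303, 13561, 10612 and 11415 in mutants. Control replicates 1 and 3 lay well above the rest, and control replicate 4 lay below mutant replicates 2 and 3. The means were 18800 ± 6224 (SD, n = 4) and 12223 ± 1438 (SD, n = 4). The log2 fold change of -0.57 (SE 0.25, 95% interval -1.12 to -0.02, limma p = 0.043, exact permutation p = 0.0857) passed the p threshold and fell just short of the fold threshold. With edgeR (-0.59, adjusted p = 0.57) and DESeq2 (-0.60, adjusted p = 0.36) it met both, as it did in limma without control replicate 4 (-0.72) or control replicate 5 (-0.68).

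Shisa9 (chr16:11984112-12270904), also called CKAMP44, slows the recovery of AMPA receptors from desensitization. It had 6113, 11497, 8158 and 5371 normalized counts in controls and 7216, 6963, 4317 and 3622 in mutants. Here control replicate 3 stood highest and control replicate 1 lay among the mutants. The log2 fold change of -0.49 (SE 0.30) did not pass the test (limma p = 0.13, exact permutation p = 0.23). With the replicate number as a block, on the 3 shared numbers, it was -0.74 with an adjusted p = 0.12 from limma, and with library weights -0.71 (adjusted p = 0.26), so Shisa9 met the thresholds in those fits.

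Prrt1 (chr17:34629564-34635114) encodes SynDIG4, an AMPA receptor partner linked to the reserve of receptors outside the synapse. It had 240, 594, 385 and 309 normalized counts in controls and 215, 168, 210 and 205 in mutants. Every mutant value lay below every control value, by the smallest margin against control replicate 1. The means were 382 ± 153 (SD, n = 4) and 200 ± 21.4 (SD, n = 4), a log2 fold change of -0.86 (SE 0.34, limma p = 0.030, adjusted p = 0.58), and the exact permutation test gave p = 0.0286. The call rested on control replicate 3, without which the log2 fold change was -0.62 (limma adjusted p = 0.73), and it was also lost without control replicate 4 (-0.83), mutant replicate 3 (-0.78) or mutant replicate 5 (-0.88).

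Grip1 (chr10:119454034-120087260) encodes a scaffold with several PDZ domains that binds the tails of GluA2 and GluA3 and links receptor cargo to kinesin motors. Its normalized counts were 1192, 1254, 1411 and 1238 in controls and 671, 814, 760 and 921 in mutants. The controls lay close together, the highest only 1.18 times the lowest, and no mutant reached them. The means were 1274 ± 95.4 (SD, n = 4) and 792 ± 104 (SD, n = 4), a log2 fold change of -0.69 (SE 0.20, 95% interval -1.13 to -0.26) with limma p = 0.0051, an adjusted p of 0.58 and an exact permutation p of 0.0286. Grip1 was called in all 8 fits that left out a library, with log2 fold changes from -0.77 to -0.62, and its library labelled control replicate 1 stood with the other controls.

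Abhd6 (chr14:8002888-8056770) encodes a hydrolase of the endocannabinoid 2-arachidonoylglycerol that also binds AMPA receptors and limits their delivery to the surface. It had 16874, 14972, 7711 and 6313 normalized counts in controls and 8654, 8523, 5230 and 4384 in mutants. Control replicates 1 and 3 were the highest, and mutant replicates 2 and 3 exceeded the other controls. The log2 fold change of -0.72 (SE 0.35) did not pass the test (limma p = 0.0688, exact permutation p = 0.17). With the replicate number as a block, on the 3 shared numbers, it was -0.63 (limma adjusted p = 0.13) and Abhd6 met the call thresholds. It also met the thresholds with DESeq2 (-0.75, adjusted p = 0.42), with library weights (-0.64) and in limma without control replicate 4 (-0.87) or control replicate 5 (-0.96).

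**Figure D2:**
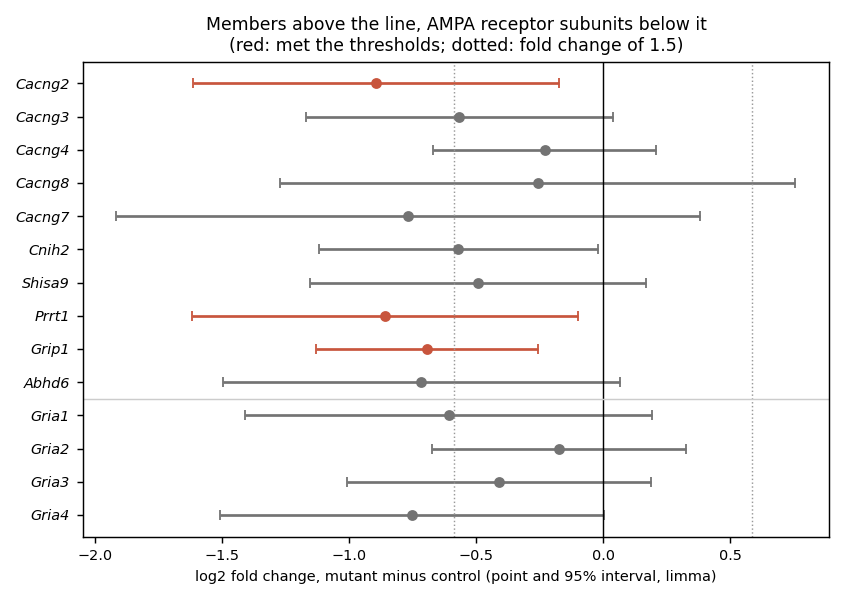
Log2 fold change, mutant minus control, with its 95% interval from limma for the 10 members (above the grey line) and the pore subunits Gria1 to Gria4 (below it), with red marking genes that met the thresholds and dotted lines a fold change of 1.5. All points lie left of 0, and the intervals of Cacng2, Cnih2, Prrt1 and Grip1 do not reach 0. Relative to MGE interneuron markers, 6 of the members and 3 of the pore subunits were above 0, where the median of all genes was 0.75.

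Per kilobase of the longest annotated transcript, which stands in for the unknown length of the counted regions, the members covered a wide range of levels and kept the same order in both genotypes. From high to low the order was Cnih2, Abhd6, Cacng3, Shisa9, Cacng4, Cacng2, Grip1, Prrt1, Cacng8 and Cacng7. In controls the mean level per kilobase ran from 13999 for Cnih2 to 65.3 for Cacng7, and in mutants from 9101 to 37.2. Neighbours whose control values overlapped across libraries, and so did not differ beyond their spread, were Abhd6 and Cacng3, Cacng3 and Shisa9, Cacng4 and Cacng2, Grip1 and Prrt1, and Cacng8 and Cacng7. Within single control libraries, Abhd6 stood above Cacng3 and Cacng3 above Shisa9 in 4 of 4, Grip1 above Prrt1 and Cacng8 above Cacng7 in 3 of 4, and Cacng4 above Cacng2 in 2 of 4. In mutants Cacng4 stood above Cacng2 without overlap, at 719 ± 81.2 against 383 ± 76.9 per kilobase (SD, n = 4), while in controls they were 853 ± 165 and 770 ± 376. The annotated coding sequence of Cacng8 is incomplete at its start, so its length and level per kilobase are the least certain.

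The make-up of the TARP pool was described as the share of each gene in the summed level per kilobase of the 5 TARPs. These are shares of the pulldown, which also held excitatory neuron markers (below), and cannot be assigned to the tagged interneurons alone. Cacng3 supplied most of it, with 66.8% ± 3.97 in controls and 66.1% ± 1.03 in mutants (SD, n = 4). Cacng4 followed with 16.8% ± 5.14 and 20.4% ± 0.79. The Cacng2 share was 15.1, 15.9, 11.8 and 12.2% in control replicates 1, 3, 4 and 5, and 10.6, 11.5, 10.1 and 10.9% in mutant replicates 2, 3, 4 and 5. Every mutant share lay below every control share, though mutant replicate 3 and control replicate 4 nearly met. Of the 11 ratios, shares and sums examined in this way it was the only one without overlap, and it was singled out after its values were seen, so it is given with no test. The summed TARP level was 0.44 ± 0.16 times that of the summed AMPA receptor subunits in controls and 0.40 ± 0.09 times in mutants (SD, n = 4), with overlap. The ratio of Cacng2 to Gria4, 0.58 ± 0.16 and 0.52 ± 0.14 (SD, n = 4), overlapped as well.

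**Figure D3:**
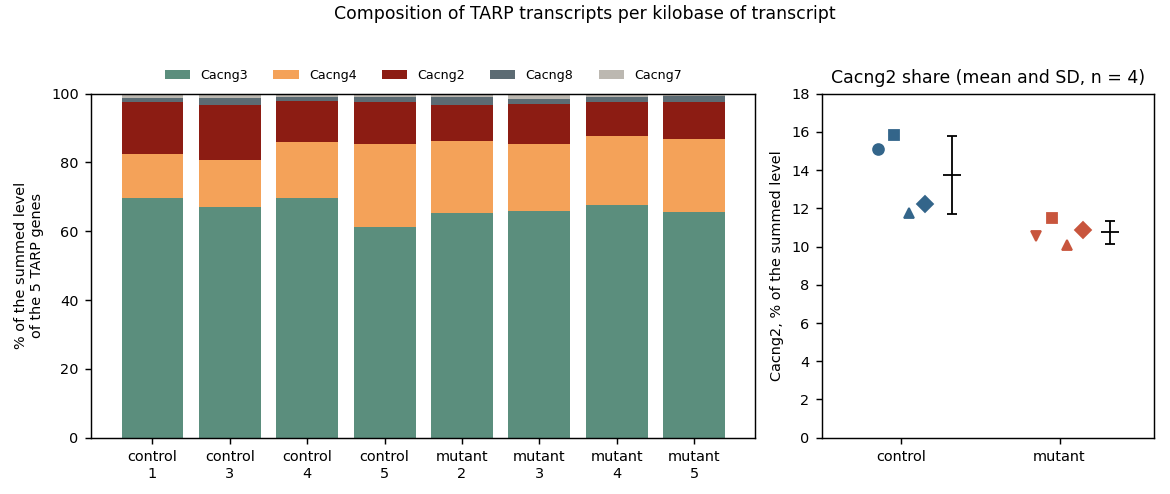
Left, the percentage of the summed TARP level per kilobase held by each of the 5 TARP genes in each library; right, the Cacng2 percentage with mean and SD (n = 4), marker shapes giving the replicate number. Cacng3 is the largest part of every bar, and the 4 mutant Cacng2 shares, 10.1 to 11.5%, sit below the controls, 11.8 to 15.9%.

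Within each genotype some libraries were high in many of the members, though not in all. Control replicate 1 was the highest control in 6 members and the lowest in 2, Prrt1 and Grip1, control replicate 3 was the highest in 3, and both stood above control replicates 4 and 5 in 6 members, the others being Cacng4, Shisa9, Prrt1 and Grip1. Among mutants, replicate 3 was the highest in 5 members and lay above its genotype's mean in 9, and replicates 2 and 3 both stood above replicates 4 and 5 in 7. In 8 members all mutants lay below control replicates 1 and 3. The spread was larger in controls for 9 members, the exception being Grip1, whose coefficient of variation was 7.5% in controls and 13.2% in mutants.

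Like the members, most markers of the tagged interneurons were lower in mutants. The MGE panel mean (log2, relative to the mean over libraries) was 0.36, 0.99, 0.34 and -0.29 in control replicates 1, 3, 4 and 5. In mutant replicates 2, 3, 4 and 5 it was 0.14, 0.18, -0.73 and -0.99. The median member was at 0.65, 0.83, -0.13 and -0.18 in controls and -0.24, 0.03, -0.51 and -0.4 in mutants. Both were highest in control replicate 3 and lowest in mutant replicates 4 and 5. Their signs differed in control replicate 4 and mutant replicate 2. All 11 genes of the MGE interneuron panel had log2 fold changes below 0, with a median of -0.79 and a range from -1.31 for Slc32a1 to -0.11 for Maf. Of them 2, Gad1 and Gad2, were called lower, and both were also called with the replicate block. Their summed level was 42798 to 142562 normalized counts in controls and 23323 to 70558 in mutants. Of the 10 PV+ markers 6 were called lower (median -1.15), including parvalbumin itself (Pvalb, -2.08), and of the 9 SST+ markers 1, Chodl (median -1.32), while Sst had a log2 fold change of -1.50 (limma adjusted p = 0.62). In the replicate block all 10 PV+ markers and 8 SST+ markers were called lower. No gene of any panel was at 0 in any library.

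Setting each library relative to its mean MGE panel level moved the median log2 fold change of all genes to 0.75 and that of the members to 0.07, which is 0.68 below all genes. In that setting 0 members were called in either direction and 0 had an unadjusted p of at most 0.05 with limma, and 4 of the 10, Cacng2, Cacng7, Prrt1 and Abhd6, stayed below 0. Count models were not run in that setting. The part of the panel's difference in the members' differences was not tested.

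Panels of other cells were also present in the pulldown. Excitatory neuron markers were nearly level, at 140441 to 175782 normalized counts in controls and 124465 to 153062 in mutants, with a median log2 fold change of -0.15. All 10 oligodendrocyte markers were below 0 (median -0.62) and Mog, Mag and Opalin were called lower, with sums of 229955 to 673772 in controls and 202878 to 287269 in mutants. None of these markers was called with the replicate block (median -0.34) or with library weights (median -0.27). In this panel control replicate 1 stood highest, as it did among controls in 6 members. The endothelial and mural panel went the other way, with Flt1, Tek and Pdgfrb called higher, a median of 0.39 and sums of 190244 to 315427 against 268953 to 302777, and with the replicate block Tek alone of them kept its call. Medians were -0.60 for markers of interneurons from the caudal ganglionic eminence, -0.17 for astrocytes, -0.17 for oligodendrocyte precursors and -0.44 for microglia, with 0 genes called in these panels by limma without a block. With the replicate block Calb2, Reln and C1ql1 were called lower, and with library weights Reln was. Of these panels edgeR called Vip and Cck lower, and DESeq2 called these and Lamp5, S100b and Aif1, while 1 precursor gene, C1ql1, had an unadjusted limma p of at most 0.05. These genes were named after their values were seen. The part of these panels in the members' differences was not tested.

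**Figure D4:**
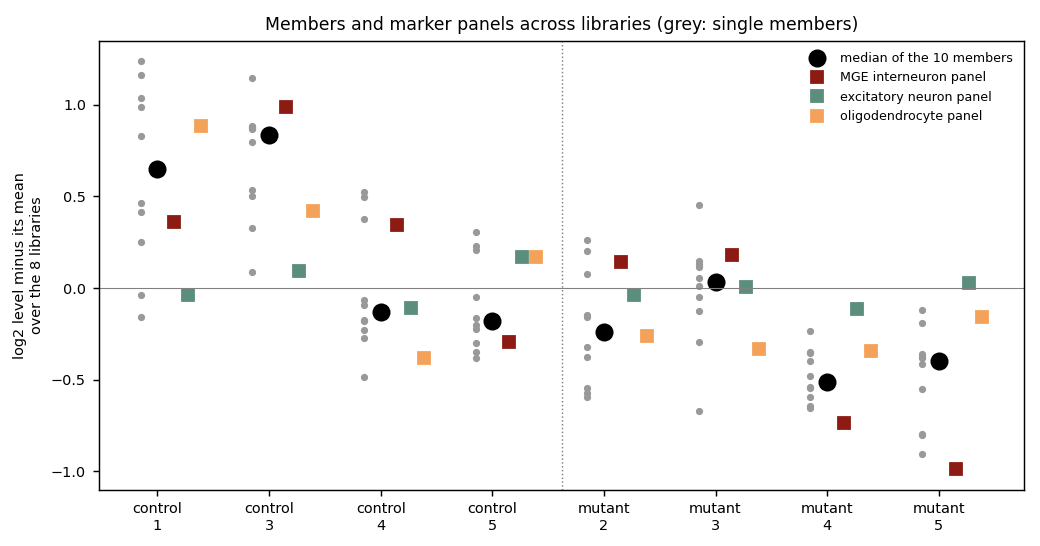
Log2 level of each member (grey points) minus its mean over the 8 libraries, with the median member (black) and the mean of 3 marker panels (squares), for control replicates (left of the dotted line) and mutant replicates (right). The median member was highest in control replicates 1 and 3 (0.65 and 0.83) and lowest in mutant replicates 4 and 5 (-0.51 and -0.40), the MGE panel was highest in control replicate 3 (0.99) and lowest in mutant replicate 5 (-0.99), and the excitatory panel stayed between -0.11 and 0.17.

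The pore subunits of the receptor were below 0 as well but none was called by limma. Gria1, Gria2, Gria3 and Gria4 had log2 fold changes of -0.61, -0.17, -0.41 and -0.75 (median -0.51). Relative to the MGE panel 3 of the 4 subunits were above 0, with a median of 0.19 against 0.75 for all genes. With limma 0 of them had an unadjusted p of at most 0.05. Gria4, the fast subunit of PV+ cells, came nearest, at 7258 ± 2719 normalized counts in controls and 4292 ± 1659 in mutants (SD, n = 4, limma p = 0.0514, exact permutation p = 0.114). It was called by DESeq2, edgeR called 0, and Gria1 and Gria4 were called with the replicate block. Like Cacng2, Gria4 was among the candidates the study chose from these libraries, so its direction is not independent evidence.

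Of 16 further auxiliary and biogenesis proteins, 15 had log2 fold changes below 0 (median -0.40) and 2 were called lower. Relative to the MGE panel 4 stayed below 0, with a list median of 0.3 against 0.75 for all genes. The called genes were Porcn, an acyltransferase found in native AMPA receptor complexes, at -0.88 (SE 0.37, limma adjusted p = 0.58), and Olfm1, a secreted noelin that binds the receptor's outer face, at -0.68 (SE 0.27, adjusted p = 0.58). Olfm1 was without overlap between genotypes, as were Shisa7 and Olfm2, which were named after their values were seen. The lowest value was that of the cornichon Cnih1, -1.04 (SE 0.53), which did not pass, and the highest that of Gsg1l, 0.30. With the replicate block 5 of the 16 were called, namely Cacng5, Cnih1, Shisa8, Porcn and Olfm3.

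Of 18 trafficking and anchoring proteins 17 were matched, since Nptxr shares a merged locus with its neighbours in the table. They were spread about 0, with 12 below and 5 above and a median of -0.04. Relative to the MGE panel all 17 were above 0, with a median of 0.66 against 0.75 for all genes. The called gene was Nptx2, a secreted pentraxin that gathers GluA4 receptors on PV+ cells, at -0.65 (SE 0.24, limma adjusted p = 0.58). Nptx2 and Nsf, an ATPase that binds GluA2 and was named after its values were seen, did not overlap between genotypes. The highest was Dlg1, the scaffold SAP97, at 0.43 (limma adjusted p = 0.59). With the replicate block Dlg4, which encodes PSD-95, was the called gene of this list.

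**Figure D5:**
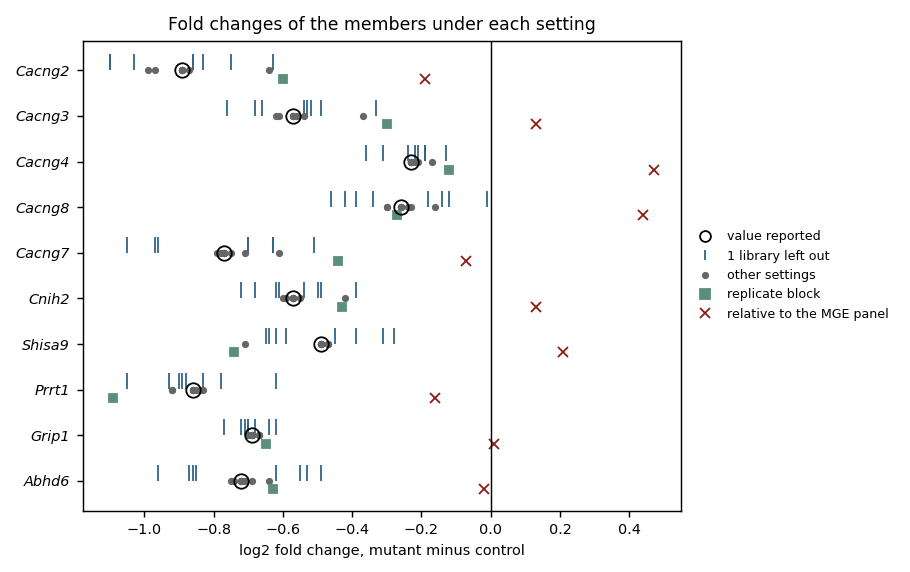
Log2 fold change of each member, mutant minus control, as reported (open circle) and under every alternative: 1 library left out (ticks), the replicate block (green squares), values relative to the MGE panel (red crosses) and other settings (grey points). The values lie left of 0 in 184 of 190 cases, and the 6 to its right are those of Cacng3, Cacng4, Cacng8, Cnih2, Shisa9 and Grip1 relative to the MGE panel. In that setting the median of all genes was 0.75.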

How the data were processed

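Libraries were grouped by the genotype in the sample labels, and all 8 value columns matched a sample. The values are a signal that the authors deposited: reads aligned with STAR 2.4.0 to mm10 (submitters' processing notes), counted on constitutive regions of Fast DB genes and scaled by the DESeq2 size factor of each library. The table is not filtered on expression. Dividing by each library's smallest value above 0 gave whole reads for 100% of values (tolerance 0.01). Genes whose mean in either genotype reached 10 normalized counts were fitted with limma 3.58.1 (lmFit, eBayes with trend) in R 4.3.3, with Benjamini-Hochberg adjustment over all of them. Count tests on the recovered reads used edgeR 4.0.16 (quasi-likelihood) and DESeq2 1.42.0. Two-sided exact permutation tests of single genes covered 70 assignments. Fold changes are on the log2(value + 1) scale, which understates those of low genes. The fits were tested on simulated counts.

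The study describes 4 biological replicates for each genotype. The labels do not say what a shared replicate number marks. Deviations from genotype means correlated at 0.28, 0.24 and 0.26 for numbers 3, 4 and 5 over genes with a mean of at least 100, and at 0.10, 0.10 and 0.08 over all tested genes. Over the first set, libraries with different numbers correlated about as much in some cases (0.28 for control 3 and mutant 2, 0.23 for control 4 and mutant 5 and for control 5 and mutant 4), so these values do not single out the shared number. The numbers were nevertheless treated as pairing the libraries, since each same-number value was over 0.1 in the first set, a choice made after the calls of the blocked fit had been seen, so blocked values stand beside the unblocked ones and do not replace them. The paper mentions 2 RNA sequencing batches, but the labels assign no library to a sequencing batch. The part of batch in the differences between libraries was not tested.

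Named genes were the members, Erbb4, the AMPA receptor subunits, called genes of the lists, the lowest and highest gene of the lists and panels, Pvalb and Sst. Calls of some marker genes are not reported here. Members and lists were chosen with earlier results of these data known. Transcript lengths and coding sequences came from GENCODE M21.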

Additional observations from a re-analysis of the deposited data

Results flagged for a closer look

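Mutant replicate 3 stood apart from the other 3 mutants in 3 TARP genes, where its gap to the next library took up more of the group's range than Dixon's 95% critical value allows for 4 samples. It had 2738 normalized counts of Cacng2, 7916 of Cacng3 and 138 of Cacng7, the highest mutant value in each. In all, 36 groups of 4 libraries were examined, of which chance alone flags about 1.8. Without mutant replicate 3, 2 members were called lower in place of 3, since Prrt1 no longer met the thresholds.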

How the results depend on the processing

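Each member's log2 fold change was recomputed in 19 settings, and 184 of these 190 values were below 0. Sign and call were both as reported in 160, the call alone was lost in 9 and gained in 15, and the sign changed in 6, among them Grip1, which also lost its call. All 6 arose relative to the MGE interneuron panel, where Cacng3 was at 0.13, Cacng4 at 0.47, Cacng8 at 0.44, Shisa9 at 0.21, Cnih2 at 0.13 and Grip1 at 0.01. There the members' median was 0.07, 4 members were below 0 and 0 were called lower (0.157% of all genes), and the median of all genes was 0.75. The number of members called lower, 3 as reported, was 5 with edgeR (3.87% of all genes called lower), 6 with DESeq2 (5.05%), 5 with library weights (5.24%) and 5 with the replicate block (5.51%), and 0 at an adjusted p under 0.05. The cause of these differences was not tested. Leaving out 1 library gave 1 to 6 members called lower. The count was 1 without control replicate 3 (1.77% of all genes) and 2 without control replicate 1 (2.06%). It was 5 without control replicate 4 (4.93%) and 6 without control replicate 5 (6.35%). Without mutant replicates 2, 3, 4 and 5 it was 3, 2, 3 and 2 (3.81, 3.78, 1.84 and 1.65%). The members' count thus rose with the share of all genes called when a control was left out, but not when a mutant was. The block changed no other member's call than those of Shisa9 and Abhd6. The lowest adjusted p of any member in any setting was 0.107, for Grip1 with DESeq2. The scarcest member, Cacng7, had 58 reads in its lowest library; counting error was not separated from the spread between libraries.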
